A study of Mus musculus with 250 samples.

Results

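Gfap-detected brain astrocytes of the adult mouse were compared with Gfap-negative ones, using 250 single cells whose titles call them astrocytes. Cells were chosen by their Gfap values alone. A cell was called Gfap-detected at 10 CPM of Gfap or more, where CPM is the number of a gene's reads per 1000000 counted reads of that cell, and Gfap-negative at 0 Gfap reads. The rule gave 32 Gfap-detected and 214 Gfap-negative cells, 246 of the 250 in all, and left 4 cells between them. All cells came from C57BL/6 mice about 3 months of age that carried SM22-Cre and Rosa26-stop-tdTomato, so both groups share strain, genotype and age, and neither received a treatment that the labels name. SM22 is the product of the smooth muscle gene Tagln, whose promoter drives the Cre that switches on the red reporter tdTomato. A cell sorter placed single brain cells in the wells of plates, with gate and region not given in the sources used here. Smart-seq2 then read full-length polyadenylated RNA without molecular identifiers. The header names fall into prefixes 2 and 3, called plate 2 (162 cells) and plate 3 (88 cells) here. The labels name no animal, so plate and animal cannot be told apart, cells are not replicates, and no p-value or standard error was computed. Every comparison below is a description by size, made within each plate unless plates are said to be pooled. Plate 3 gave 19 of the 32 Gfap-detected but 68 of the 214 Gfap-negative cells, so a pooled value also carries the difference between plates.

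Gfap encodes glial fibrillary acidic protein, an intermediate filament of the astrocyte skeleton that is widely used to stain astrocytes. Its level differs between brain regions, being known as high in white matter and at the brain surface and low in much of the grey matter, and it rises when astrocytes react to injury. Cytokines that signal through the receptor subunit gp130 and the kinase JAK activate the transcription factor STAT3, which acts on the Gfap promoter together with nuclear factor I (NFI) proteins, while Notch and BMP signals also promote its expression. Gfap lies on the minus strand of chromosome 11 at 102887336 to 102900912 (GRCm38, GENCODE M21).

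The promoter is shown because many of the regulators examined below are known to act on it. The 300 bases around the RefSeq start of Gfap lie at chr11:102897151-102897450 on the minus strand (GRCm38.p6, RefSeq). The capitals mark the only match in this window, on either strand, to the STAT motif TTCNNNGAA, at bases 249 to 257 counted from the 5′ end.
Gfap: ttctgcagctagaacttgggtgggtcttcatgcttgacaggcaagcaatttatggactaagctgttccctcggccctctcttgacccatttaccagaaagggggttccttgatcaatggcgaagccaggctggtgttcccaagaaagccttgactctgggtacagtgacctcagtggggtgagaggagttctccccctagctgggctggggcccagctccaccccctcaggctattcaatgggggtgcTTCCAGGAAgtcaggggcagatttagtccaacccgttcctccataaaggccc
The same letters are found in 2710 of 32544 promoter windows of this length (8.33%). The full NFI palindrome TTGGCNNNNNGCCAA is not in the window and is found in 12 of the 32544 (0.0369%). Both strands were searched, and a match is a description of letters, not of binding.

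Gfap was either clearly present or not read at all in nearly every cell. On plate 2, 13 of 162 cells were Gfap-detected (8.02%, exact 95% interval 4.34 to 13.3%), and on plate 3, 19 of 88 were (21.6%, 13.5 to 31.6%). These intervals do not overlap, and like every interval here they cover counting error only. Gfap in the Gfap-detected cells ran from 32.6 CPM through a median of 271 to 4471 CPM on plate 2, and from 63.7 through 312 to 809 CPM on plate 3. The mean was 654 ± 1180.2 CPM (SD, n = 13 cells) on plate 2 and 333 ± 214 CPM (n = 19) on plate 3. Just outside the threshold, each of the 4 cells between the groups had 1 Gfap read, worth 2.03 to 4.81 CPM. Just inside it, the lowest cell had 10 reads and 32.6 CPM, followed by cells at 63.7 and 73.4 CPM, so no cell lay near 10 CPM. A single plate 2 cell at 4471 CPM held 962 of the 4199 Gfap reads of the whole study (22.9%), and the next highest cell had 1025 CPM.

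**Figure D1:**
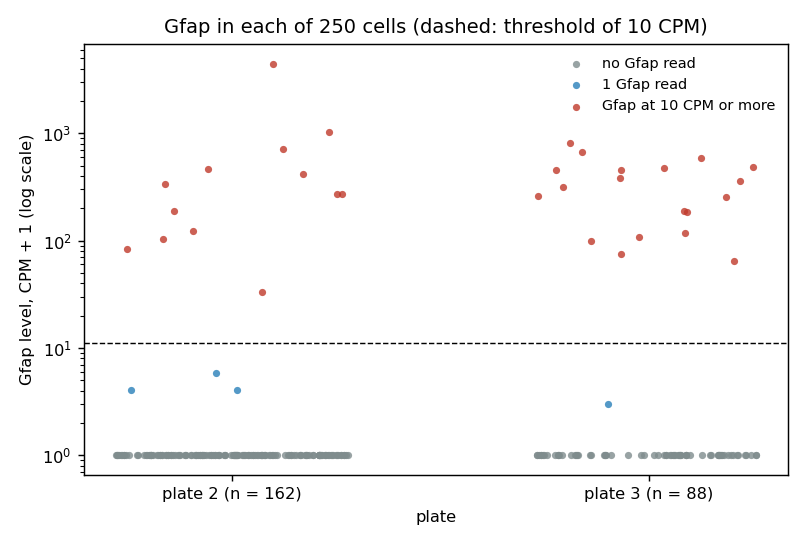
Gfap level of each of the 250 cells, as CPM + 1 on a log axis, by plate, with 1 point per cell and the sideways spread for visibility only. The 32 Gfap-detected cells start at 32.6 CPM, well above the dashed threshold of 10 CPM, and the 4 cells with 1 read lie below it.

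Median depth was somewhat higher in Gfap-detected cells on each plate, and the shallowest cells of each plate were Gfap-negative. The lowest totals in Gfap-detected and Gfap-negative cells were 211690 and 102161 reads on plate 2, and 144150 and 116316 on plate 3. Median total counts were 290017 and 251162 reads in Gfap-detected and Gfap-negative cells of plate 2, and 397072 and 386716 on plate 3, within a range of 102161 to 564958 over all cells. The median number of genes at 10 CPM or more was 2359 against 2373 on plate 2 and 2606 against 2450 on plate 3. With every cell thinned to 100000 reads, all 32 Gfap-detected cells were still detected, joined by 2 of the cells between. At that depth any Gfap read reaches 10 CPM, and cells without Gfap reads cannot gain any. Both outcomes therefore follow largely from the setting, and the part of depth in the Gfap groups was not tested.

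The core astrocyte genes had close mean levels in both groups. All 20 genes of a list of general astrocyte markers were measured in both groups, and 0 of 20 differed by 2-fold in the same direction on both plates. Over all compared genes 0.952% were higher and 4.38% lower by that rule, so a count of 0 of 20 is near the background. Their median log2 ratio of mean CPM, Gfap-detected over Gfap-negative, was -0.07 on plate 2 and -0.01 on plate 3, against -0.11 for all compared genes on each plate. Single ratios ran from -0.49 to 0.55 on plate 2 and from -0.42 to 0.68 on plate 3. Slc1a2, the main glutamate transporter of forebrain astrocytes, had 4094 ± 1545 CPM in Gfap-detected and 4105 ± 1889 CPM in Gfap-negative cells of plate 2 (n = 13 and 146), and 4979.8 ± 2534 against 4887 ± 3028 CPM on plate 3 (n = 19 and 68). Gja1, the gap junction protein connexin 43, had 8946 against 7635 CPM on plate 2 and 4670.1 against 6249.9 CPM on plate 3, so its ratio changed direction between plates. Both genes were detected in every cell of both groups. Slc1a3, the glutamate transporter GLAST, was a little higher in Gfap-detected cells on each plate, at 1.3-fold and 1.39-fold. The water channel gene Aqp4 stood at 1.15-fold and 0.906-fold. The summed level of the 20 genes in a cell had a median of 60776 against 65386 CPM on plate 2 and 68813 against 66664 CPM on plate 3, and the groups overlapped throughout.

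Across other genes, few differed in the same direction on both plates. Of 24489 genes besides Gfap, 7288 had a mean of 20 CPM or more, and 5253 of these were compared because no single cell held 10% or more of their summed CPM. A gene was called higher or lower when the ratio of mean CPM + 1 reached 2-fold in the same direction on each plate. By that rule 50 genes (0.952%) were higher and 230 (4.38%) were lower in Gfap-detected cells. Genes that passed 2-fold in opposite directions were nearly as many, with 124 (2.36%) higher on plate 2 and lower on plate 3 and 110 (2.09%) the reverse, so 280 genes had the same direction and 234 the opposite one. Across the 5253 genes the ratios of both plates had a Pearson correlation of 0.0015 and a Spearman correlation of 0.0071. This is across genes, which are not independent replicates, and the plates share no cells. The groups of 13 and 19 Gfap-detected cells were small, and in 211 of the 230 lower genes 1 cell held over 50% of the Gfap-detected cells' sum on at least 1 plate, as it did in 19 of the 50 higher genes. Without the limit on the share of 1 cell, 127 genes were higher and 488 lower among 7288, and in the deeper cells alone 109 were higher and 393 lower. The direction of the calls depended on the measure. When each cell counted by its log2(CPM + 1) and a difference of at least 1 between group means was asked on each plate, 103 genes (1.96%) were higher, 95 (1.81%) were lower and 192 (3.66%) went in opposite directions, so the lower share of the calls was 48.0% in place of 82.1%. Of these, 22 of the 103 and 43 of the 95 were also among the 50 and the 230.

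**Figure D2:**
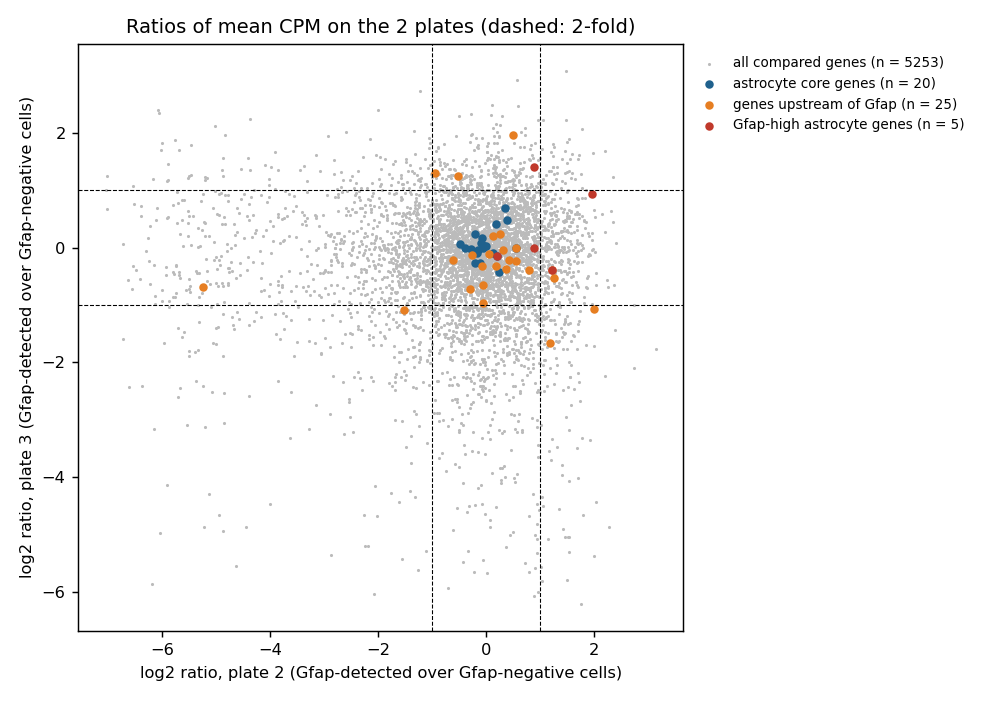
Log2 ratio of mean CPM + 1, Gfap-detected over Gfap-negative cells, on plate 2 (x axis) and plate 3 (y axis), with 1 point per gene and dashed lines at 2-fold. The 5253 genes form a cloud with no slope, and the 20 astrocyte core genes lie inside the 2-fold lines on both axes.

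The 12 leading higher genes were Tmem69, Zmym5, Gpr85, Pigk, Psmd2, Mbp, Mkrn1, Nr2c2, Gm17066, Tcf3, Capn10 and Dnajc24, found in 21.9 to 53.1% of Gfap-detected and 9.81 to 29.9% of Gfap-negative cells with plates pooled. Their log2 ratios ran from 1.47 to 2.20 on plate 2 and from 1.47 to 3.08 on plate 3. The exact intervals of these pooled shares were apart between the groups for 3 of the 12 genes. Psmd2, a subunit of the proteasome's regulatory particle on chromosome 16 at 20651652 to 20663414 (GRCm38), had 229.5 ± 273 against 75.9 ± 164 CPM on plate 2 and 184 ± 214 against 58.9 ± 144 CPM on plate 3. It was detected in 7 of 13 and 10 of 19 Gfap-detected cells, and in 44 of 146 and 20 of 68 Gfap-negative cells. The SDs exceed the means and the ranges of both groups start at 0, so the groups overlap for this gene as for each gene in this paragraph. Zmym5, a zinc finger gene, had 300.2 against 64.5 CPM on plate 2, in 10 of 13 and 34 of 146 cells, and 188 against 58.2 CPM on plate 3, in 6 of 19 and 15 of 68 cells. Gpr85, an orphan G protein-coupled receptor of the brain, was detected in 6 of 13 and 4 of 19 Gfap-detected cells and in 18 of 146 and 3 of 68 Gfap-negative cells. Tcf3, which encodes the E proteins E12 and E47, partners of basic helix-loop-helix factors, had 62.7 against 21.8 CPM on plate 2 and 43.4 against 4.25 CPM on plate 3. In the 4 cells with 1 Gfap read, which the choice of groups did not use, 5 of the 12 genes were above the Gfap-negative mean and 7 had no read.

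Ranking by ratio, with 1 CPM added to each mean, favours lower genes with almost no read in the few Gfap-detected cells. Near absence there therefore follows largely from the ranking and is no separate result. The 12 leading lower genes were nearly unread in the Gfap-detected cells and read in a minority of Gfap-negative cells. They were Zfp386, Impa1, Zfp738, Mterfd1, 1110004E09Rik, Fntb, Ccp110, Trak2, Mkks, Rcbtb2, Lrrc49 and Pcdh19, found in 0 to 9.38% of Gfap-detected and 12.6 to 24.8% of Gfap-negative cells with plates pooled. Impa1, the inositol monophosphatase inhibited by lithium, was detected in 0 of 13 and 1 of 19 Gfap-detected cells against 33 of 146 and 20 of 68 Gfap-negative cells. Its mean was 0.363 against 88.5 CPM on plate 2 and 1.98 against 92.8 CPM on plate 3. Zfp386, a zinc finger gene, reached 10 CPM in 0 of 13 and 0 of 19 Gfap-detected cells, which exact intervals limit to 24.7% and 17.6%, against 28 of 146 (19.2%) and 12 of 68 (17.6%) Gfap-negative cells. For Zfp386 the Gfap-negative share therefore lies within the Gfap-detected interval on plate 2 and at its upper limit on plate 3. Pcdh19, a protocadherin gene, was detected in 0 of 13 and 2 of 19 Gfap-detected cells, against 27 of 146 and 17 of 68. With plates pooled, the exact intervals of the shares in both groups were apart for 3 of the 12 lower genes.

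Calls were fewer among widely detected genes. Of 964 compared genes detected in at least 50% of all cells, 1 (0.104%) was higher on both plates, 7 (0.726%) were lower and 0 went in opposite directions, and the correlation of ratios between plates was 0.073 (Pearson) and 0.10 (Spearman). This class of genes was chosen after the values were seen. The higher gene was Ssr3, a subunit of the translocon-associated protein complex of the endoplasmic reticulum. Its level ran from 0 through a median of 397 to 2742 CPM in Gfap-detected and from 0 through 80.3 to 1862 CPM in Gfap-negative cells of plate 2. On plate 3 the medians were 531 and 39.9 CPM. The mean ratios were 2.46-fold and 2.3-fold. The lower genes were Atl2, Cyc1, Hp1bp3, Ntrk3, Ppp3ca, Sf1 and Tnik. Atl2, an atlastin GTPase that shapes the endoplasmic reticulum, had 127 ± 210.4 against 372 ± 462 CPM on plate 2 and 147 ± 375 against 355 ± 434 CPM on plate 3. It was detected in 38.5% and 36.8% of Gfap-detected cells and in 68.5% and 67.6% of Gfap-negative cells of plates 2 and 3, so its shares were alike across plates. Ntrk3, which encodes the neurotrophin receptor TrkC, had 82.1 against 273 CPM on plate 2 and 166 against 396 CPM on plate 3.

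By the log measure, which follows how many cells hold a gene, Pcyox1, Psmd2 and Nnat led the higher genes and Atl2, Lrtm2 and Ndufa12 the lower ones. Pcyox1, Nnat and Lrtm2 are named here after their values were seen. Pcyox1, a prenylcysteine oxidase of the lysosome, was detected in 8 of 13 and 12 of 19 Gfap-detected cells, against 46 of 146 and 17 of 68 Gfap-negative cells. Nnat, the imprinted gene of the small membrane protein neuronatin, ran from 603 through a median of 2355 to 9347 CPM in Gfap-detected cells of plate 2 and was read in all 13 of them, while the Gfap-negative cells ran from 0 through 960.04 to 7359 CPM. On plate 3 the Nnat medians were 551 and 176 CPM. Its mean ratios of 1.97-fold and 1.95-fold fell just short of 2-fold. Lrtm2, a leucine-rich repeat membrane protein, had 30.3 against 181 CPM on plate 2 and 51.8 against 328 CPM on plate 3, and was detected in 2 of 13 and 5 of 19 Gfap-detected cells against 57 of 146 and 43 of 68 Gfap-negative cells.

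Few genes known from astrocytes with high Gfap could be compared. Of the 14 in the list, 5 were compared and 0 passed 2-fold on both plates in either direction. Over all 5253 genes 0.952% were higher and 4.38% lower, so 0 of 5 is near the background. By the log measure 2 of the 5 (Cd9 and Serpina3n) were higher, beside 1.96% of all genes. The median log2 ratio of the 5 was 0.88 on plate 2 and -0.01 on plate 3. Cd9, a tetraspanin of the cell surface, ran from 0 through a median of 83.7 to 945 CPM in Gfap-detected and from 0 through 0 to 1619 CPM in Gfap-negative cells of plate 2, and from 0 through 258 to 1286 CPM and from 0 through 0 to 1052 CPM on plate 3. The ranges overlap, while the median is above 0 in Gfap-detected cells of each plate. Cd9 was detected in 8 of 13 against 53 of 146 cells and in 13 of 19 against 26 of 68 cells. The mean ratios were 1.84-fold and 2.65-fold.

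Serpina3n, a secreted protease inhibitor that marks reactive astrocytes, was detected in a higher share of plate 3 cells in both Gfap groups, so its values are given within plates. It was detected in 4 of 13 against 14 of 146 cells on plate 2 and in 13 of 19 against 33 of 68 cells on plate 3, with mean ratios of 3.9-fold and 1.9-fold. The plate 2 cell with the most Gfap had 0 CPM of Serpina3n. S100a6, a small calcium-binding protein, was left out of the comparison because 1 cell held 14% of its sum. Its values were 43.4 ± 72.8 against 22.7 ± 59.8 CPM on plate 2 and 84.5 ± 211 against 16.7 ± 51.7 CPM on plate 3, with 4 of 13 against 28 of 146 and 10 of 19 against 11 of 68 cells detecting it. The members Id3, Igfbp5 and Aqp4 were above the Gfap-negative mean on plate 2 and at or below it on plate 3. Id3, an inhibitor of basic helix-loop-helix factors and a BMP target, had 452 against 195 CPM on plate 2 and 183 against 241 CPM on plate 3. Thbs4, Myoc and Crym were detected in no Gfap-detected cell. Thbs4 and Crym had no read in the 146 Gfap-negative cells of plate 2 either, while each of these genes was read in those of plate 3. Cd44, a hyaluronan receptor, was detected in 1 Gfap-detected and 3 Gfap-negative cells.

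The genes known to act upstream of Gfap were examined next. The list holds 36 genes of the JAK-STAT, NFI, Notch, BMP and AP-1 routes, of which 25 were compared. By 2-fold on both plates 0 of the 25 were higher and 1 was lower. Over all 5253 genes 0.952% were higher and 4.38% lower, so both counts are near the background. Ratios were above 0 on both plates for 3, below 0 on both for 8 and split for 14, beside 1074, 1634 and 2545 of the 5253 genes. By the log measure 1 of the 25 was higher (Nfix) and 1 lower (Cntfr), beside 1.96% and 1.81% of all compared genes. Stat3 itself had 261 against 65 CPM on plate 2 and 27.5 against 58.6 CPM on plate 3, so it passed 2-fold in opposite directions. Il6st, the gp130 receptor subunit, and Jak2 were higher on both plates, although both were left out of the comparison because 1 cell held 13.2% and 17.2% of their sums. Il6st had 298 against 117 CPM on plate 2, in 6 of 13 and 46 of 146 cells, and 366 against 76.3 CPM on plate 3, in 7 of 19 and 15 of 68 cells. Its median on plate 3 was 0 CPM in both groups, and 1 Gfap-detected cell reached 4380.2 CPM. Lifr and Cntfr, receptors that pair with gp130, were not higher, with mean ratios of 0.654-fold and 0.861-fold for Lifr and 0.955-fold and 0.639-fold for Cntfr.

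Among the 4 NFI genes, Nfix was the one above 0 on both plates. Nfix, on chromosome 8 at 84699876 to 84800344 (GRCm38), had a median of 65.5 against 17.1 CPM on plate 2 and 124 against 29.1 CPM on plate 3. It was detected in 10 of 13 against 79 of 146 cells and in 16 of 19 against 42 of 68 cells, and its mean ratios were 1.4-fold and 3.87-fold. Nfia, which is known to start the astrocyte programme, had ratios of 1.14-fold and 0.804-fold, and Nfib had 0.944-fold and 0.805-fold. Nfic had 0.52-fold on plate 2 and 2.46-fold on plate 3. The Notch receptor Notch1 and its effector Hes5 had ratios of 0.832-fold and 0.911-fold, and 1.46-fold and 0.854-fold. Smad4, the shared partner of the BMP and TGF-beta SMAD proteins, was the 1 lower member, at 12.5 against 37.5 CPM on plate 2 and 21.9 against 47.8 CPM on plate 3, in 2 of 13 against 27 of 146 and 2 of 19 against 14 of 68 cells.

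**Figure D3:**
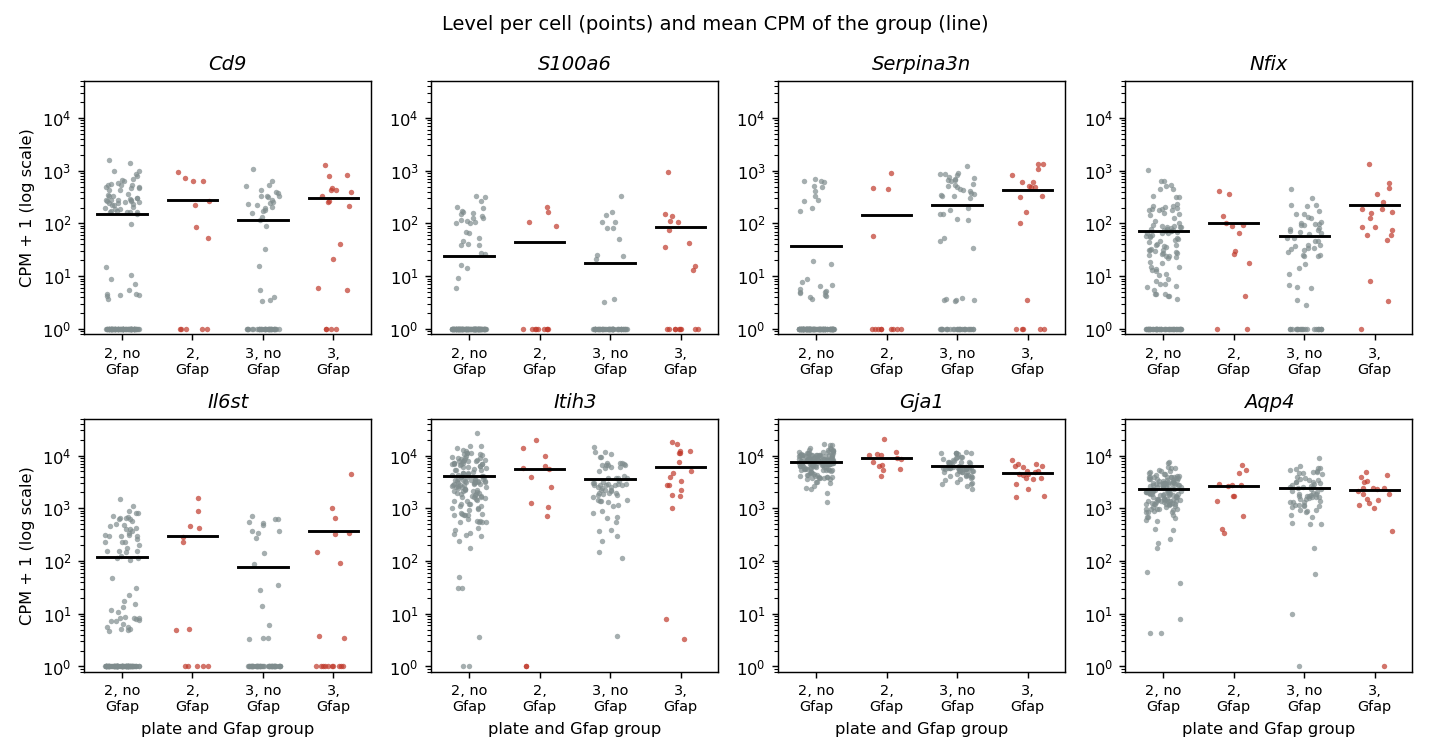
Level per cell of 8 genes as CPM + 1 on a log axis, by plate and Gfap group (red, Gfap-detected; grey, Gfap-negative), with 1 point per cell and a line at the group's mean CPM + 1. Cells with and without Cd9, Serpina3n or Nfix occur in every group, while Gja1 is read in all cells of both groups.

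Most other intermediate filament genes were too low, or too concentrated in 1 cell, to be compared. Of 16 filament, linker and filament chaperone genes, 5 were compared and 0 passed 2-fold on both plates. Over all compared genes 0.952% were higher and 4.38% lower, so this count is near the background. The median log2 ratio of the 5 was -0.46 on plate 2 and -0.23 on plate 3. Vim, the vimentin gene whose product assembles with Gfap protein, was detected in 1 of 13 and 1 of 19 Gfap-detected cells and in 19 of 146 and 8 of 68 Gfap-negative cells. Synm, the synemin gene, was higher in mean on both plates, at 3.39-fold and 3.55-fold, but was not compared because 1 cell held 20% of its sum. It was detected in 2 of 13 and 2 of 19 Gfap-detected cells against 7 of 146 and 5 of 68. Nes, the nestin gene, reached 10 CPM in no cell of either group. Prph, the peripherin gene, had 41.7 against 29 CPM on plate 2 and 86.3 against 52.7 CPM on plate 3. Cryab, a small heat shock protein that binds Gfap filaments, had 12.6 against 56.8 CPM on plate 2 and 67.7 against 79.8 CPM on plate 3.

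Most genes of reactive astrocytes were likewise too low, or too concentrated in 1 cell. Of the pan-reactive list 1 of 12 was compared (Serpina3n, above), of the list known as A1 2 of 11, and of the list known as A2 0 of 12. The compared A1 members H2-D1, a class I histocompatibility gene, and Amigo2, an adhesion molecule, were each higher on plate 2 and lower on plate 3. Amigo2 had 304 against 119.8 CPM on plate 2 and 59.2 against 119.9 CPM on plate 3. Lcn2 and Timp1, which are induced in reactive astrocytes, were detected in 1 and 0 of the 32 Gfap-detected cells. Neither had a read in the 68 Gfap-negative cells of plate 3, and both were read in those of plate 2. The metallothionein genes Mt1, Mt2 and Mt3 had ratios between 0.727-fold and 1.15-fold on plate 2, and between 0.833-fold and 1.01-fold on plate 3.

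Immediate early and stress genes, which also respond to cell isolation, had 0 of 14 members compared. At least 1 of the 14 was detected in 9 of 13 Gfap-detected and 82 of 146 Gfap-negative cells of plate 2, and in 17 of 19 and 44 of 68 cells of plate 3. Their summed level had a median of 197 against 24.7 CPM on plate 2 and 92.3 against 48.4 CPM on plate 3, and the groups overlapped. Jun, Btg2, Dusp1 and Zfp36 were higher in mean on both plates, while some other members were not. Fosb, Hspa1a and Hspa1b had no read in the Gfap-detected cells of plate 2 and were read in its Gfap-negative cells. Fos had 213 against 9.57 CPM on plate 2 and 16.4 against 26.7 CPM on plate 3, and the plate 2 cell with the most Gfap alone had 1961 CPM of Fos. The part of these genes in the Gfap comparison was not tested.

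Lists of regional, radial and endfoot astrocyte genes were small, and over all 5253 genes 0.952% were higher and 4.38% lower, so a count of 0 is near the background in each. Of 7 non-telencephalic astrocyte genes, 6 were compared and 0 passed 2-fold on both plates, with medians of 0.20 and 0.06 on the log2 scale. Itih3, an extracellular matrix protein, had a direction that depended on the measure, with a mean of 5445 ± 6035 against 4102 ± 3954 CPM on plate 2 and 6168 ± 5580.5 against 3595 ± 3199 CPM on plate 3. By the log measure its differences were -0.95 on plate 2 and 0.14 on plate 3. It was below 10 CPM in 2 of 13 and 2 of 19 Gfap-detected cells, against 3 of 146 and 1 of 68 Gfap-negative cells. Agt, the angiotensinogen gene, had ratios of 1.29-fold and 1.13-fold, and Sparc, a matricellular glycoprotein, had 1.02-fold and 1.56-fold. The caudal transcription factor Irx2 went in opposite directions, at 83.1 against 27.5 CPM on plate 2 and 4.41 against 35.4 CPM on plate 3. At least 1 of 13 caudal factors was detected in 7 of 13 against 66 of 146 cells on plate 2 and in 8 of 19 against 38 of 68 on plate 3. Of 8 genes known from Bergmann glia, the radial astrocytes of the cerebellum, 4 were compared and 0 passed. Of 12 radial glia or stem cell genes, 6 were compared and 0 passed, while Fabp7, a fatty acid binding protein of radial glia, was lower by the log measure, with differences of -1.80 and -1.11. Of 15 endfoot and matrix genes, 12 were compared and 0 passed, with medians of 0.09 and -0.27. Of 9 genes that neighbour Gfap on chromosome 11, 2 were compared and 0 passed.

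**Figure D4:**
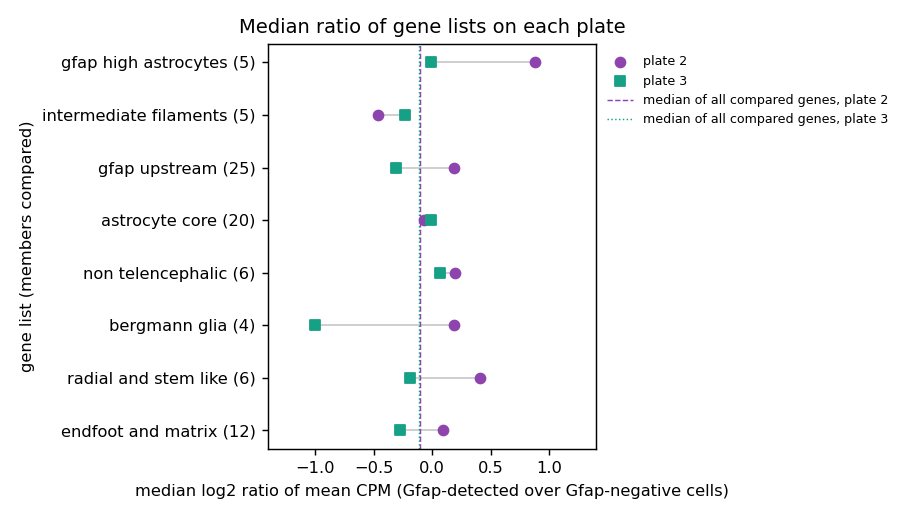
Median log2 ratio of mean CPM + 1, Gfap-detected over Gfap-negative cells, of the compared members of 8 gene lists on plate 2 (circles) and plate 3 (squares), with the number of compared members in brackets and vertical lines at the medians of all compared genes. The core list lies near 0 on both plates, and the Gfap-high list lies at 0.88 on plate 2 and -0.01 on plate 3.

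Markers of other cell types were present in both groups. At least 3 markers of some other type were detected in 2 of 13 Gfap-detected against 33 of 146 Gfap-negative cells of plate 2, and in 3 of 19 against 11 of 68 cells of plate 3. At least 1 of 11 neuron markers was detected in 10 of 13 against 82 of 146 cells and in 16 of 19 against 44 of 68 cells, a higher share of Gfap-detected cells on each plate. The summed level of these neuron markers had medians of 71.2 against 18.3 CPM on plate 2 and 59.3 against 61.2 CPM on plate 3. The myelin gene Mbp, 1 of the 12 leading higher genes, had 429 ± 811 against 146 ± 329 CPM on plate 2 and 165 ± 387 against 55.8 ± 179 CPM on plate 3, in 5 of 13 against 41 of 146 and 5 of 19 against 9 of 68 cells. The oligodendrocyte genes Mag and Opalin were detected in no Gfap-detected cell. Among Gfap-negative cells, Mag was read on both plates and Opalin on plate 2 only. The summed level of the 10 oligodendrocyte markers ran from 18.6 to 3529 CPM against 0 to 4075 CPM on plate 2, and from 0 to 2574 CPM against 0 to 2619.7 CPM on plate 3. Its medians were higher in Gfap-detected cells on both plates, at 1176 against 868 CPM and 797 against 549 CPM. Rarres2, a chemoattractant gene placed among 5 ependymal markers, was higher by the log measure and detected in 6 of 13 against 49 of 146 and in 10 of 19 against 18 of 68 cells. The ependymal regulator Foxj1 was detected in 1 of 13 and 1 of 19 Gfap-detected cells, and Ccdc153 and Tmem212 in none. Ccdc153 had no read in the Gfap-negative cells of plate 3 either. At least 1 ependymal marker was detected in 8 of 13 against 54 of 146 cells and in 10 of 19 against 21 of 68 cells, and the medians of their sum were 79.9 against 0 CPM on plate 2 and 30.7 against 0 CPM on plate 3. The sum reached 517 CPM in Gfap-detected and 273 CPM in Gfap-negative cells of plate 2, and 232 and 545 CPM on plate 3. The part of these cell types in the Gfap comparison was not tested. Without the cells that held 3 or more markers of another type, 65 genes were higher and 291 lower on both plates, and 30 of the 50 and 178 of the 230 were among them.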

How the data were processed

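The submitters' processing notes name STAR 2.4.2a and build mm10. The method of counting, its use of strand, the gene annotation and the choice of cells were not given in the sources used here. As deposited, the authors' file is a table of read counts of 24490 gene rows by 250 cells, whole numbers that were not normalized, and each column name matched 1 sample, with 0 left over. The authors' scaled table was not used. CPM were computed from the deposited counts over each cell's total of 102161 to 564958 reads, and no cell was removed and no doublet caller run.

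Gfap-detected (10 CPM or more) and Gfap-negative (0 reads) cells were compared within each plate as log2[(mean CPM + 1) / (mean CPM + 1)]. Such a ratio understates the change of low genes. Genes compared had a mean of 20 CPM or more, with no cell at 10% or more of their sum. Genes past 2-fold on both plates were ranked by the smaller of both plates' absolute log2 ratios. The leading 12 in each direction are named, with members of 28 lists (252 genes, 250 with a row, 91 compared). Members and lists were chosen with earlier results of these data known. No test was run. Shares carry exact (Clopper-Pearson) 95% intervals, and a gene is detected at 10 CPM. PCR reads without molecular identifiers are not independent molecules, so intervals cover counting error only. The 15 alternatives cover the pseudocount, the gene filters, the measure, the Gfap threshold, depth, cells left out and pooling of plates. The calculation was tested on simulated data. That simulation planted changes larger than 2-fold in genes well above 20 CPM, so it does not bear on 2-fold calls of low genes. Gene positions come from GENCODE M21 (GRCm38), and Python 3.11.15, pandas 2.3.3 and scipy 1.17.1 were used.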

Additional observations from a re-analysis of the deposited data

How the results depend on the processing

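The counts of 50 higher and 230 lower genes stayed within 1.5 times under 8 of 15 alternatives for the higher and 9 of 15 for the lower genes. A pseudocount of 10 CPM left 32 higher genes, and a minimum mean of 50 CPM left 23 higher and 129 lower, since fewer genes were tested. Without the limit on the share of 1 cell there were 127 higher and 488 lower, over 7288 genes. The difference of mean log2(CPM + 1) gave 103 and 95. The deeper cells of the shared depth range, 20 Gfap-detected and 93 Gfap-negative, gave 109 and 393, and of the reported genes 22 and 147 were among them. Pooling the plates asks for 2-fold once and gave 160 and 567. Genes detected in at least 50% of cells gave 1 and 7, an alternative chosen after seeing the data. Without the cell with the most Gfap on each plate there were 48 and 272, of which 36 and 204 were among the reported ones. Of the values of single named genes under the alternatives, 1004 moved by less than the SD of the gene's ratio between the plates and 250 by more. The 25 of these genes called higher or lower kept their sign in all 275 values. Their ratios passed 2-fold on both plates by the rule of the calls, and the alternatives reuse the same cells. A kept sign therefore follows largely from that choice and is no separate support. Of the 89 named genes that were not called, 46 changed sign under at least 1 alternative, 23 of them under the log measure, among them Itih3 and S100b. No paired analysis was possible because the labels give no replicate numbers shared between groups. Precision is limited by 13 and 19 Gfap-detected cells. A gene read in a few Gfap-detected cells could be left out by the limit on the share of 1 cell. The 250 cells are 1 group with no animal named.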
